A study of Homo sapiens with 15 samples.

Results

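Cells on the way to cardiomyocytes by 2 routes, replating or inhibition of WNT secretion, were compared on day 5, at the stage of heart progenitors. The comparison set the passaged library of day 5 against the NP-IWP2 library of day 5 and took every gene with at least 30 counts in either of them, which was 15069 of the 60605 genes counted. Of these, 13595 had at least 30 counts in both libraries. At the edge of this choice, 96 genes had a higher count of exactly 30, with FPKM of 0.07 to 8.62 in the library where they were higher, and 77 genes just outside had a higher count of 29, with FPKM of 0.16 to 22.1.

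RNA was taken from H1, an established line of human embryonic stem cells with no engineered allele, in 1 time course of 15 bulk RNA sequencing libraries. All cells received CHIR99021, which activates WNT signalling, on day 0 and a low dose of insulin on day 1 in a chemically defined medium called DF. From day 2 the NP-IWP2 cells stayed in their wells (NP for not passaged) and received IWP2, a blocker of the secretion of WNT ligands, which the methods of the study apply until day 4. The passaged cells were lifted with EDTA on day 2, replated at a lower density with the ROCK inhibitor Y27632, and given no WNT inhibitor. NP-ctrl cells, which were neither passaged nor given IWP2, serve below as a reference on day 5, and so does the day 2 library from which all arms started. Replating, density, Y27632 and the absence of IWP2 differ together between the arms and cannot be told apart. Each arm had 1 library per day from 1 cell line, so no value has a biological replicate, no test across genes was run, and every difference is between 2 libraries.

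In the embryo, cells that leave the primitive streak express MESP1 and become cardiac mesoderm. A first wave of these cells, the first heart field, expresses HAND1, TBX5 and NKX2-5 and soon makes contractile proteins. The second heart field lies in the pharyngeal mesoderm, is kept proliferating by FGF signals, expresses ISL1, TBX1, EYA1, FGF8 and FGF10, and adds the right ventricle, the outflow tract and part of the atria later. Neighbouring mesoderm and endoderm of the same origin form epicardium, body wall mesenchyme, gut and yolk sac.

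The NP-IWP2 library held 14145047 counts and the passaged library 15269132, and genes of the mitochondrial genome took 4.58% and 5.05% of them. For a gene of 1 kilobase of exon, 3 counts correspond to 0.212 FPKM in NP-IWP2 and 0.197 FPKM in passaged. FPKM, the count scaled by exon length and library total, is used for levels. A fold is the ratio of counts scaled to the library totals, and the interval after it is the exact 95% interval that counting alone allows. It covers counting error only and takes reads as independent. PCR copies a molecule many times and its reads are then not independent, so the interval may be too narrow. Where 1 library had no count, the fold is a bound set at 3 counts. With 1 or 2 counts the fold uses them as they are, whereas log2 ratios raise them to 3.

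The labels name the cells by their starting line, and the markers showed that both cultures had left that state. POU5F1, a pluripotency factor, stood at 241 FPKM on day 2 and at 6.27 in NP-IWP2 and 2.47 in passaged on day 5, and NANOG had 2 counts in each. MESP1, MESP2 and EOMES, markers of cardiac mesoderm, summed to 329 FPKM on day 2 and to 2.74 and 0.74 FPKM on day 5. The 6 cardiomyocyte markers summed to 532 FPKM in NP-IWP2 and 462 FPKM in passaged, against 1.68 FPKM on day 2, and all 6 had at least 226 counts in each library. MYL7 alone made up 480 FPKM of the first sum and 204 of the second, while MYH6 was at 13.1 and 119.6 FPKM and NKX2-5 at 7.80 and 110.0, so the near sums hide members that differed in opposite directions. The 8 cardiac progenitor markers summed to 635 and 269 FPKM, and HAND1 alone made up 304 and 34.8 FPKM of that. NP-ctrl, the undirected arm, was at 403 FPKM for the cardiomyocyte and 797 for the progenitor markers on day 5. MYL7 made up 379 of the first and HAND1 570 of the second, so these sums do not set the cultures directed to heart apart from it. Every cardiomyocyte marker but MYL7 was lower in NP-ctrl than in both other arms, with MYH6 at 1.98 and NKX2-5 at 1.31 FPKM.

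Markers of other cells differed as well. Those of yolk sac or liver (AFP, APOA1, APOA2, TTR, APOB) summed to 61.1 FPKM in NP-IWP2 and 1.71 in passaged. Those of fibroblasts (COL1A1, COL3A1, POSTN, DCN, LUM) summed to 916 and 310 FPKM. In NP-ctrl these sums were 124 and 1603 FPKM. COL1A1, at 363 and 212 FPKM, and COL3A1, at 443 and 89.6, made up most of the fibroblast sums. POSTN went the other way, at 0.22 and 6.46 FPKM. The fibroblast sum of NP-IWP2 is above its cardiomyocyte sum, but sums over different genes do not compare numbers of cells. The epicardial markers summed to 6.88 and 1.42 FPKM. The endoderm markers summed to 47.5 and 61.5 FPKM, but of these only EPCAM and CDH1 were higher in passaged, while HNF4A, with 289 counts in NP-IWP2, was at 0 counts in passaged. The 4 endothelial markers summed to 2.59 and 4.84 FPKM, nearly all of it TEK, with PECAM1 at 4 and 0 counts and CDH5 at 1 and 7 counts. The 5 blood markers summed to 1.04 and 0.23 FPKM with HBZ at 0 in both. In RNA from a whole culture, fewer cells of a type and less RNA per cell cannot be told apart. The part of these other cells in the differences below was not tested.

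Of the 15069 genes, 969 (6.43%) were at least 2-fold higher in passaged and 1202 (7.98%) at least 2-fold lower, so that 14.4% differed by this size. The median log2 ratio of passaged to NP-IWP2 was 0.02, with quartiles at -0.34 and 0.36. For 11129 genes the interval lay wholly within 2-fold, and it lay wholly past 2-fold for 516 genes on the higher and 668 on the lower side. At least 8-fold differences were found for 121 genes higher and 169 lower in passaged. The share past 2-fold was 37.2% among genes with a mean of under 1 FPKM and 6.64% among those of 5 to 20 FPKM. Among the 245 genes with a mean of at least 100 FPKM, 4 were higher and 23 lower in passaged. No gene stands here on a test, and a list of genes is described by its counts beside 6.43% and 7.98%. A gene that reached 30 counts in 1 library only had to differ between them, so counts over a list with many such genes are a description and support nothing.

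**Figure D1:**
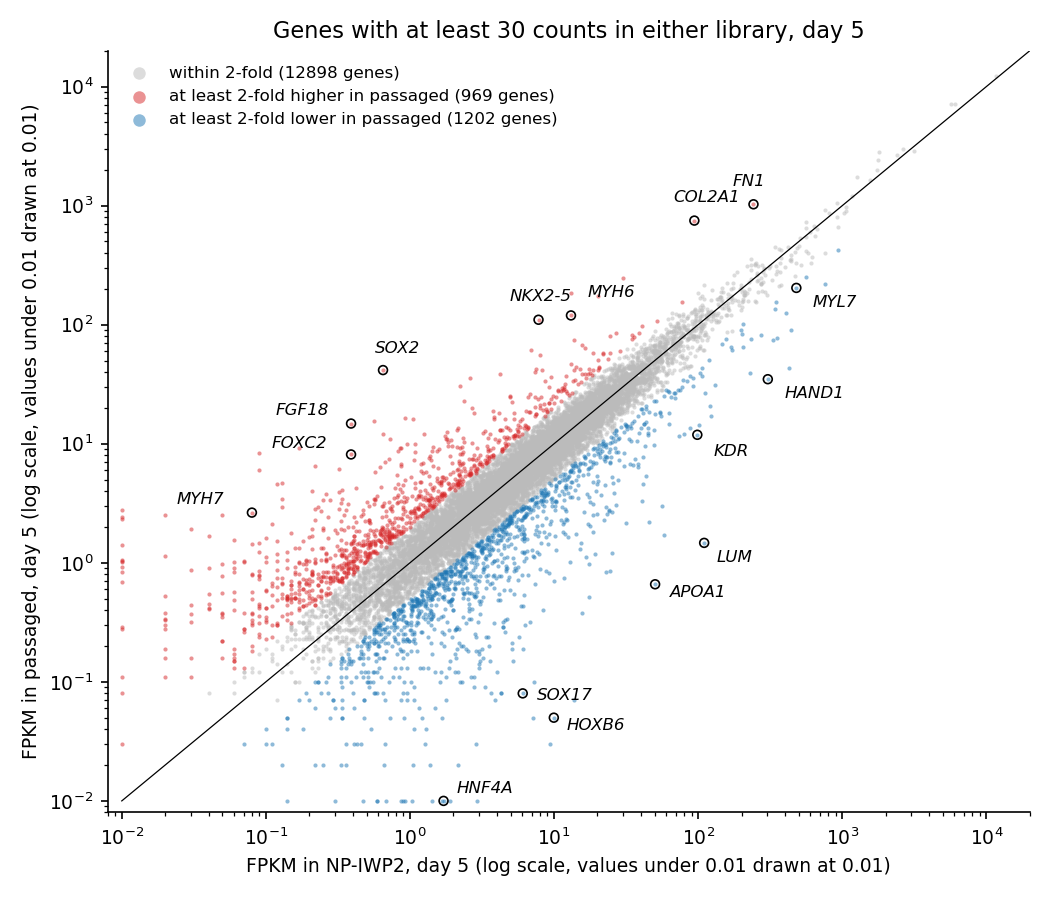
FPKM of each of the 15069 genes in NP-IWP2 (horizontal) and passaged (vertical) on day 5, both on log scales, with values under 0.01 drawn at 0.01 and the line of equal levels. Red points are the 969 genes at least 2-fold higher and blue points the 1202 at least 2-fold lower in passaged. SOX2, NKX2-5, FGF18, COL2A1 and FN1 lie far above the line and LUM, APOA1, HOXB6 and HNF4A far below it.

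The protein-coding genes that were furthest higher in passaged, among those with at least 300 counts, belonged to no single list. First was ASB2, a muscle subunit of a ubiquitin ligase, with 6 counts in NP-IWP2 and 630 in passaged, 97.3-fold higher (44.4 to 266). SOX2 (chr3:181711925-181714436, GRCh38), a transcription factor of pluripotent, neural and foregut cells, followed with 23 and 1594 counts, 64.2-fold higher (42.6 to 102). LPL, lipoprotein lipase, had 10 and 578 counts. FGF18, a secreted growth factor, had 11 and 451 counts and GREM1, a secreted BMP antagonist, 28 and 1065. The next were the matrix protein POSTN, the skeletal actin ACTA1, FOXC2, RFTN2, the thick filament protein MYBPC3, PRDM1 and the growth factor NRG1, which ran down from 29.4-fold to 16.4-fold. All 12 were under 1 FPKM in NP-IWP2 on day 5.

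Of the 12 genes furthest lower in passaged by the same rule, 3 were in the lists used here, HOXB6, APOA1 and LUM. HOXB6 (chr17:48595751-48604992, GRCh38), a homeobox factor of trunk identity, had 367 counts in NP-IWP2 and 2 in passaged, 198-fold lower (54.5 to 1642), or 132-fold with the 2 counts raised to 3. SHISA3, of a family that holds back WNT and FGF receptors inside the cell, had 307 counts and 1 count. HABP2, a serine protease of plasma, had 366 and 3 counts. APOA1, the main protein of high density lipoprotein, had 779 and 11 counts. The small proteoglycan LUM had 4157 and 60 counts, 74.8-fold lower (58.0 to 98.2). The other 7 were IGSF10, MAB21L2, the large matrix protein RELN, the pepsinogen PGA5, the WNT agonist RSPO2, the complement component C7 and GAD1, an enzyme that makes GABA, which ran from 35.0-fold to 20.9-fold lower. PGA5 has near-identical copies, so its count is uncertain, and IGSF10 and MAB21L2 overlap other genes of the table.

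The core factors of the heart were split between the arms. Of 27 listed, 25 were measured, 5 were at least 2-fold higher in passaged, 7 at least 2-fold lower and 13 within 2-fold, with a median log2 ratio of -0.28 against 0.02 for all genes. NKX2-5 (chr5:173232109-173235311, GRCh38), a homeobox factor of the early heart tube, was at 7.80 FPKM in NP-IWP2 and 110.0 FPKM in passaged, with 226 and 3441 counts. It was 14.1-fold higher in passaged (12.3 to 16.2), and NP-ctrl was at 1.31 FPKM. Its relative NKX2-6 was at 34.9 and 76.3 FPKM. The Iroquois factors IRX3 and IRX5 and the nuclear receptor NR2F2, which marks atrial and venous cells, were 2.83-fold, 4.45-fold and 3.72-fold higher in passaged. On day 2, NKX2-5, NKX2-6 and NR2F2 were at 0.24, 0.00 and 0.40 FPKM, whereas IRX3 was at 76.5 and IRX5 at 17.9 FPKM.

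HAND1 and several T-box and GATA factors were on the other side. HAND1 (chr5:154474972-154478227, GRCh38), a factor of the first heart field and of extraembryonic mesoderm, was at 304 FPKM in NP-IWP2 and 34.8 in passaged, 8.73-fold lower (8.15 to 9.37), while NP-ctrl was at 570 FPKM and day 2 at 44.9. TBX20, which is needed for growth of the heart tube, was at 41.6 and 7.70 FPKM, 5.40-fold lower (4.66 to 6.28). TBX2, a repressor of chamber genes, was at 22.9 and 2.96 FPKM. TBX5, of the first heart field and atria, was low in both, with 176 and 36 counts, and was 5.28-fold lower (3.67 to 7.78). GATA4 and GATA5 were 2.60-fold and 2.29-fold lower. For each of these 6 the NP-ctrl level of day 5 lay above that of passaged.

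Among the 13 core factors within 2-fold were several of the best known ones. ISL1, the LIM factor of the second heart field, was at 39.6 FPKM in NP-IWP2 and 60.0 in passaged, 1.52-fold higher (1.42 to 1.61). MEF2C, a muscle factor, was at 8.82 and 16.4 FPKM and MYOCD, the coactivator of SRF, at 8.78 and 16.1 FPKM. HAND2 was at 68.6 and 62.0 FPKM and GATA6 at 79.2 and 47.3 FPKM.

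**Figure D2:**
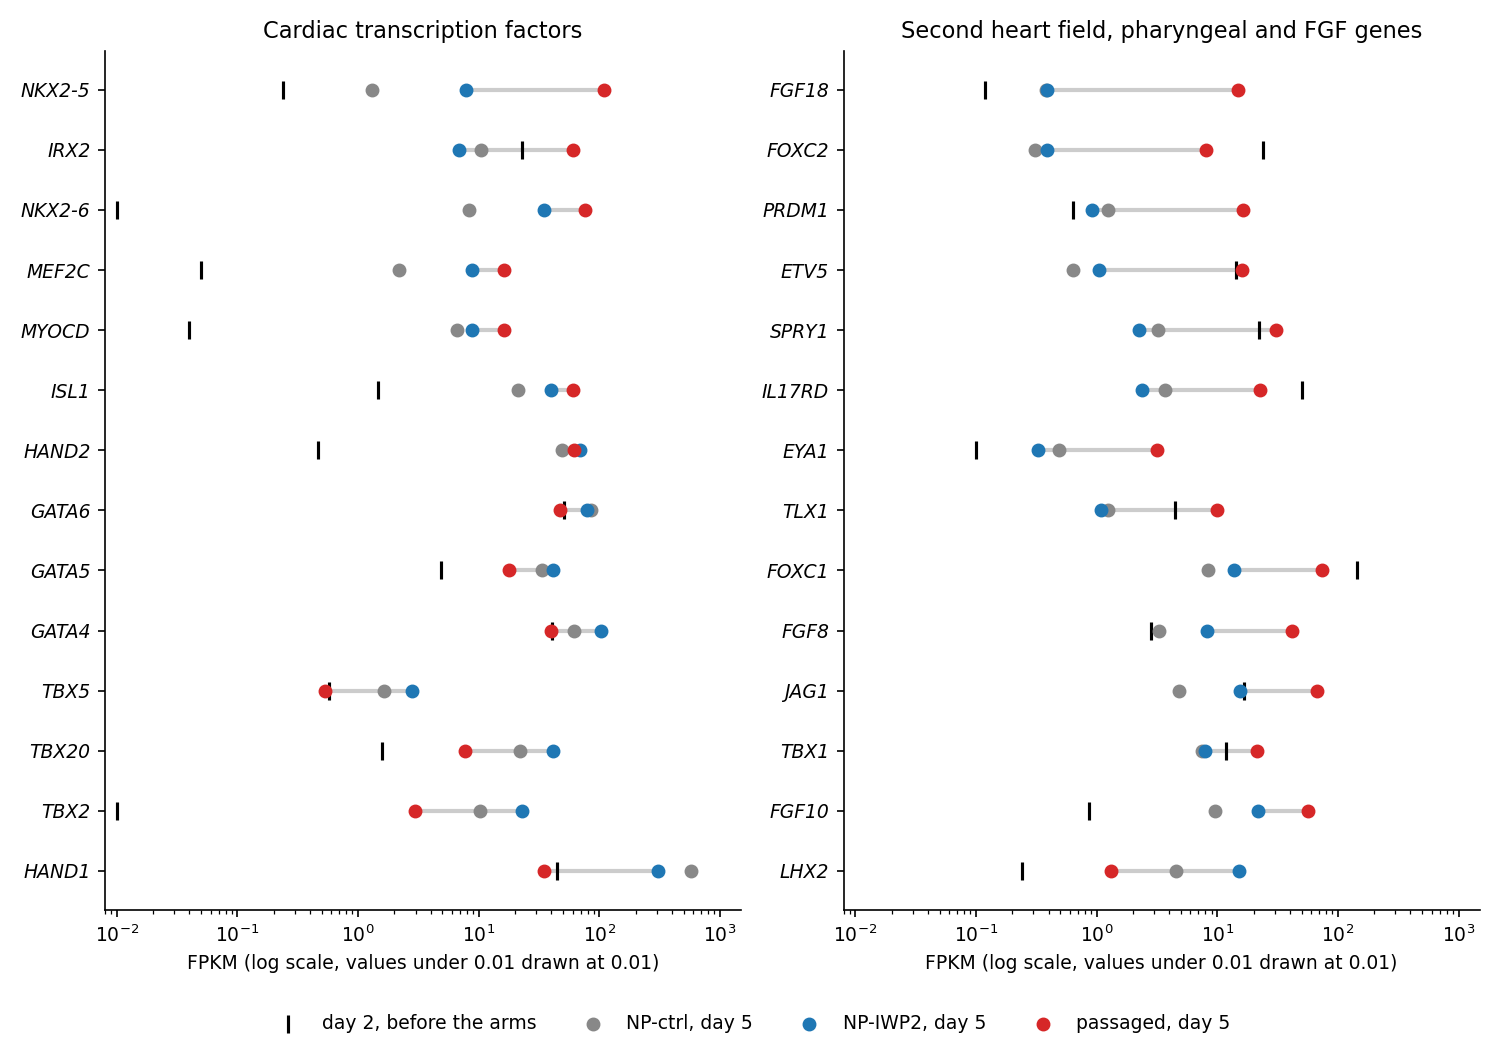
FPKM on day 5 in NP-ctrl (grey), NP-IWP2 (blue) and passaged (red), and on day 2 (black tick), on a log scale with values under 0.01 drawn at 0.01, for 14 cardiac transcription factors (left) and 14 second heart field, pharyngeal and FGF pathway genes (right). Each point is 1 library. NKX2-5 runs from 7.80 to 110.0 FPKM between NP-IWP2 and passaged and HAND1 from 304 to 34.8. On the right passaged is the highest of the 3 arms for every gene shown but LHX2. These genes were picked by hand and leave out TCF21, FGFR2 and FGFR4, which were lower in passaged. Of those measured, 15 of 22 second heart field and 10 of 20 FGF genes were at least 2-fold higher, and 2 of each list lower.

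Genes of the second heart field and the pharyngeal mesoderm were higher in passaged as a group. Of 27 listed, 22 were measured and 15 of these were at least 2-fold higher, against 6.43% of all genes, with 3 of the 22 measured through passaged alone. Only LHX2 and TCF21, factors of head muscle precursors, were at least 2-fold lower, and the median log2 ratio was 1.41. EYA1, a transcriptional cofactor of pharyngeal progenitors, was at 0.33 FPKM in NP-IWP2 and 3.20 in passaged, 9.60-fold higher (7.04 to 13.4). Its relative EYA2 was 7.75-fold higher, and the homeobox factor SIX2 had 0 and 79 counts, at least 24.4-fold higher. TBX1, a T-box factor of the pharynx, was at 7.94 and 21.3 FPKM. The forkhead factors FOXC1 and FOXC2, which act in second heart field and paraxial mesoderm, were at 13.8 and 73.9 FPKM and at 0.39 and 8.13 FPKM. PRDM1, a repressor found in pharyngeal progenitors, was at 0.92 and 16.4 FPKM, and the NOTCH ligand JAG1 at 15.6 and 67.7 FPKM.

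Part of this set was already high before the arms separated. FOXC1 was at 144 FPKM on day 2, FOXC2 at 23.8, TBX1 at 11.8 and JAG1 at 16.8. EYA1 and PRDM1 were at 0.10 and 0.64 FPKM on that day, below their level in passaged on day 5. LHX2 went the other way, at 15.2 FPKM in NP-IWP2 and 1.31 in passaged, from 0.24 on day 2. HOXB1, which marks the hindmost second heart field, had 7 and 0 counts and was not among the genes compared.

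FGF signalling genes, of which FGF8 and FGF10 are also in the second heart field list, followed the same side. Of 24 listed, 20 were measured, 10 were at least 2-fold higher and 2 lower in passaged, against 6.43% and 7.98% of all genes. The median log2 ratio was 1.08, and 2 of the 20, FGF9 and FGF18, were measured through passaged alone. Among the ligands, FGF8 was at 8.23 FPKM in NP-IWP2 and 41.9 in passaged, 5.10-fold higher (4.32 to 6.04). FGF10 was at 21.8 and 57.0 FPKM, 2.62-fold higher (2.49 to 2.76). FGF18 was at 0.39 and 14.8 FPKM, and FGF9 had 6 and 63 counts. In NP-ctrl these 4 ligands were at 3.32, 9.62, 0.38 and 0.16 FPKM, all below passaged.

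The genes that FGF signals are known to induce, many of them feedback inhibitors, were on that side too. ETV5 and ETV4, transcription factors downstream of the receptors, were 15.2-fold (12.3 to 19.2) and 4.66-fold (3.17 to 7.04) higher in passaged. SPRY1, an inhibitor of the pathway, was at 2.23 and 30.6 FPKM, and SPRY2 and SPRY4 were 2.38-fold and 3.20-fold higher. IL17RD, another inhibitor, was at 2.37 and 22.8 FPKM. DUSP6, a phosphatase of ERK, was at 66.7 and 88.4 FPKM, 1.33-fold higher, so the targets did not all differ by the same amount. The receptors FGFR2 and FGFR4 were 3.02-fold and 3.98-fold lower in passaged.

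Genes listed for cardiac mesoderm and the primitive streak were lower in passaged. Of 15 cardiac mesoderm genes measured, none was at least 2-fold higher and 12 were at least 2-fold lower, with a median log2 ratio of -1.83, and 3 of the 15 had reached 30 counts in NP-IWP2 alone. KDR, a VEGF receptor of early mesoderm and endothelium, was at 98.7 FPKM in NP-IWP2 and 11.9 in passaged, 8.30-fold lower (7.80 to 8.83). LGR5, a receptor for R-spondins, was 9.35-fold lower (8.11 to 10.8), BMP4 was 4.21-fold lower and PRDM6, a smooth muscle repressor, 14.2-fold lower. PDGFRA, which was the nearest of the named ones, was at 66.2 and 47.6 FPKM, both above its day 2 level of 18.1. MESP1 had 33 and 8 counts, far below its day 2 level of 81.8 FPKM. On day 2, 6 of the 15 cardiac mesoderm genes were above both libraries of day 5 in FPKM and 7 were below both. The cardiac mesoderm list is thus not one of earlier genes alone, whereas all 7 primitive streak genes measured were above both. Of 7 primitive streak genes measured, 5 were at least 2-fold lower, NODAL most with 93 and 6 counts, but 4 of the 7 had reached 30 counts in NP-IWP2 alone. Of 9 presomitic and paraxial genes measured, 3 were at least 2-fold higher and 5 lower, with a median log2 ratio of -1.18, or -0.47 with no count minimum. The 3 higher were PAX1, MEOX2 and FOXC2, which is also in the second heart field list. Of the 9, 3 were measured through passaged alone and 1 through NP-IWP2 alone. TBX6 had 51 and 15 counts, UNCX, a somite factor, 520 and 114, and the sclerotome and muscle factors PAX1 and MEOX2, measured through passaged alone, 0 counts in NP-IWP2 and 91 and 38 in passaged.

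Contractile genes were higher in passaged in part. Of 45 sarcomere genes listed, 37 were measured, 14 were at least 2-fold higher and 2 lower, and the median log2 ratio was 0.45, with 6 measured through passaged alone and 1 through NP-IWP2 alone. MYH6, the alpha myosin heavy chain, was at 13.1 FPKM in NP-IWP2 and 119.6 in passaged, 9.13-fold higher (8.64 to 9.67), and at 1.98 FPKM in NP-ctrl. MYH7, the beta chain, had 7 and 243 counts, and reads of the 2 chains may be shared because the genes are near-identical. MYBPC3 was 18.6-fold higher (13.5 to 26.4), TNNC1, the troponin that binds calcium, 3.86-fold, and CSRP3, a protein of the Z disc, had 3 and 85 counts. Other filament genes did not share this difference. TNNT2 was at 14.6 and 15.2 FPKM, 1.04-fold higher (0.97 to 1.12), TTN at 5.63 and 5.86, ACTC1 at 233 and 318, and TPM1 at 349 and 264 FPKM. MYL7, the atrial light chain, was at 480 FPKM in NP-IWP2 and 204 in passaged, 2.36-fold lower (2.28 to 2.44), and MYH7B was also lower, with 60 and 20 counts.

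Genes of excitation were split. Of 30 calcium handling and ion channel genes measured, 7 were at least 2-fold higher and 10 lower, with a median log2 ratio of 0.04. Against this stand 6.43% and 7.98% of all genes. Of the 30, 3 had reached 30 counts in NP-IWP2 alone and 3 in passaged alone, and so had to differ. KCNJ3 and KCNJ2 are of this kind. KCNJ3, an atrial potassium channel, had 299 counts in NP-IWP2 and 6 in passaged, 53.8-fold lower (24.4 to 148). CACNA1D and HCN4, channels of pacemaker cells, were 13.8-fold and 3.35-fold lower, and the gap junction gene GJA1 3.11-fold lower. KCNJ2, the channel that sets the resting potential, had 18 and 253 counts and was higher by 8.07-fold to 22.3-fold within its interval. PLN, the inhibitor of the calcium pump, was at 4.66 and 13.8 FPKM, while RYR2 and ATP2A2, the release channel and the pump, were 1.24-fold and 1.13-fold higher.

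Secreted heart factors and chamber genes showed a like mixture. NPPB, B-type natriuretic peptide, was at 4.19 FPKM in NP-IWP2 and 38.4 in passaged, 9.15-fold higher (6.66 to 12.9), and NPPA, its atrial relative, had 1 and 21 counts and was below 30 in both. NRG1 and BMP10, growth factors of the endocardium and of trabeculae, were 16.4-fold and 8.37-fold higher. ADM and VEGFA, peptides of vessels, were 12.4-fold and 5.94-fold lower. In all, 5 of the 9 measured secreted genes were at least 2-fold higher and 2 lower. Of 16 atrial and ventricular genes, 2 were higher and 7 lower, with IRX2, a ventricular factor, 8.85-fold higher (7.90 to 9.94), while MYL2, the ventricular light chain, was at 0 counts in both and MYL3 was 1.05-fold lower (0.82 to 1.34 in the ratio of NP-IWP2 to passaged).

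Targets of YAP, a coactivator that TEAD factors bring to DNA and that responds to cell spreading and adhesion, were mostly within 2-fold, 18 of 23, with a median log2 ratio of -0.11. The 3 that were at least 2-fold higher included those most used as readouts. CCN2, a matrix protein, was at 29.9 FPKM in NP-IWP2 and 248 in passaged, 8.28-fold higher (7.75 to 8.85). ANKRD1, a stress protein of the sarcomere, was at 13.2 and 186 FPKM, 14.1-fold higher (12.7 to 15.8). CCN1 was 3.09-fold higher (2.87 to 3.32). TGFB2 and IGFBP3 were 3.76-fold and 4.17-fold lower. The promoters of CCN2 and ANKRD1 are shown because they hold the letters that TEAD factors bind, and that of ACTA1, which was 27.4-fold higher in passaged (17.4 to 45.8), because it holds a site of SRF beside them. They are the RefSeq sequences on GRCh38.p14 from 250 bases before to 50 after the start of the gene, all on the minus strand, at chr6:131951323-131951622, chr10:90921038-90921337 and chr1:229434045-229434344. Capitals mark GGAATG, or its reverse complement CATTCC, and in ACTA1 also the CArG box.
CCN2: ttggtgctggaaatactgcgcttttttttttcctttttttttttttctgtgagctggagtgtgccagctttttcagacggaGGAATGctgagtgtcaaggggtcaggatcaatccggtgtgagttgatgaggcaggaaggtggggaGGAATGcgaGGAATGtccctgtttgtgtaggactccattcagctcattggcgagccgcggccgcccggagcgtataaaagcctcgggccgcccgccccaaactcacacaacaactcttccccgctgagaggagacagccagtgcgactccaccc
ANKRD1: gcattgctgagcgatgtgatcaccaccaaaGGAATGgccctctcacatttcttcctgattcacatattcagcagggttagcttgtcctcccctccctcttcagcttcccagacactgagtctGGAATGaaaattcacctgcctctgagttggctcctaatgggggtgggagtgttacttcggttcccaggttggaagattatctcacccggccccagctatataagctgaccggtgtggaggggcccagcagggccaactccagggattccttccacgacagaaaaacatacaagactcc
ACTA1: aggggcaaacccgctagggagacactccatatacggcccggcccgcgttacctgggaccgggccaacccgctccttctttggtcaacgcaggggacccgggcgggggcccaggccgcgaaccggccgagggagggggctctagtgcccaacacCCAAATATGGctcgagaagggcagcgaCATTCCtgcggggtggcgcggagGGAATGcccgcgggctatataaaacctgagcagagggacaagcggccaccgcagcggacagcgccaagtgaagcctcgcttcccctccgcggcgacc

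The CCN2 promoter held 3 matches to GGAATG, that of ANKRD1 2, and that of ACTA1 2 and 1 CArG box, with no match of one kind overlapping the other. On both strands, GGAATG was found in 14.0% of all 27305 RefSeq promoters of this length and in 10.7% of the 10533 of protein-coding genes compared. It was found in 9.36% of the promoters of genes at least 2-fold higher in passaged and in 13.2% of those lower, so it was not more frequent among the higher genes. Of 16 promoters of measured YAP targets, 6 held it (37.5%), a list of genes known for their response to YAP and TEAD and so no independent evidence, and of 23 of sarcomere genes also 6 (26.1%). The CArG box was found in 1.29% of all promoters, in 1.11% of those of the protein-coding genes compared, in 2.94% of the 545 of higher genes and in 1.02% of the 689 of lower genes. It was in none of the 16 promoters of YAP targets and in 6 of the 23 of sarcomere genes. A match describes the letters of this window and is not evidence of binding.

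WNT pathway genes did not follow a single direction. Only the NP-IWP2 cells had been given a blocker of WNT secretion, which the methods of the study apply until day 4. Its part in the day 5 values was not tested. Of 20 WNT feedback targets measured, 5 were at least 2-fold higher and 6 lower in passaged, with a median log2 ratio of 0.09 that took the other sign, -0.34, among genes with at least 100 counts. AXIN2, the target most used as a readout, was at 4.71 FPKM in NP-IWP2 and 6.62 in passaged, 1.41-fold higher (1.23 to 1.61). DKK1, a secreted antagonist, was at 2.61 and 36.0 FPKM, 13.8-fold higher (11.0 to 17.5). LGR5, SP5 and the agonist RSPO3 were 9.35-fold, 7.60-fold and 7.69-fold lower. Among 8 WNT ligands measured, WNT6 and WNT5A were 4.95-fold and 2.27-fold higher and 6 were within 2-fold. The antagonists and receptors were split as well, with 4 of 20 higher and 5 lower, SFRP5 being 5.30-fold lower.

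BMP genes were split between agonists. BMP4 was at 129.9 FPKM in NP-IWP2 and 30.9 in passaged, whereas BMP2 was at 11.3 and 29.5 and BMP7 at 6.84 and 26.2 FPKM. The antagonist GREM1 was 35.2-fold higher in passaged (24.2 to 53.3). MSX1, a target of BMP signals, was 4.48-fold lower (3.95 to 5.08). Of 28 genes of the pathway, 8 were at least 2-fold higher and 7 lower, against 6.43% and 7.98% of all genes. Of the 28, 3 were measured through passaged alone, GREM1 with 28 counts in NP-IWP2 among them, and 2 through NP-IWP2 alone. The NODAL and TGF-beta list had 2 higher and 7 lower of 15, TDGF1, the NODAL coreceptor, being 5.19-fold lower (4.12 to 6.60). Of these 15, 2 were measured through NP-IWP2 alone and 1 through passaged alone.

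Of 11 retinoic acid genes measured, 2 were at least 2-fold higher, 1 was lower and 8 were within 2-fold. ALDH1A2, the enzyme that makes retinoic acid in mesoderm, was at 0.86 FPKM in NP-IWP2 and 9.28 in passaged, 10.8-fold higher (8.77 to 13.4). RARB, a receptor gene that retinoic acid induces, was 5.08-fold higher (4.45 to 5.82), and LRAT, which stores retinol, had 70 and 18 counts. In the NOTCH and hedgehog list, 6 of 21 were at least 2-fold higher and 5 lower. Of the 21, 3 were measured through NP-IWP2 alone and 2 through passaged alone. The NOTCH target HEY1 was 7.42-fold higher (6.43 to 8.61) beside the ligand JAG1. The ligand IHH had 201 and 9 counts, and the hedgehog targets GLI1 and PTCH1 were 20.8-fold and 2.78-fold lower.

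**Figure D3:**
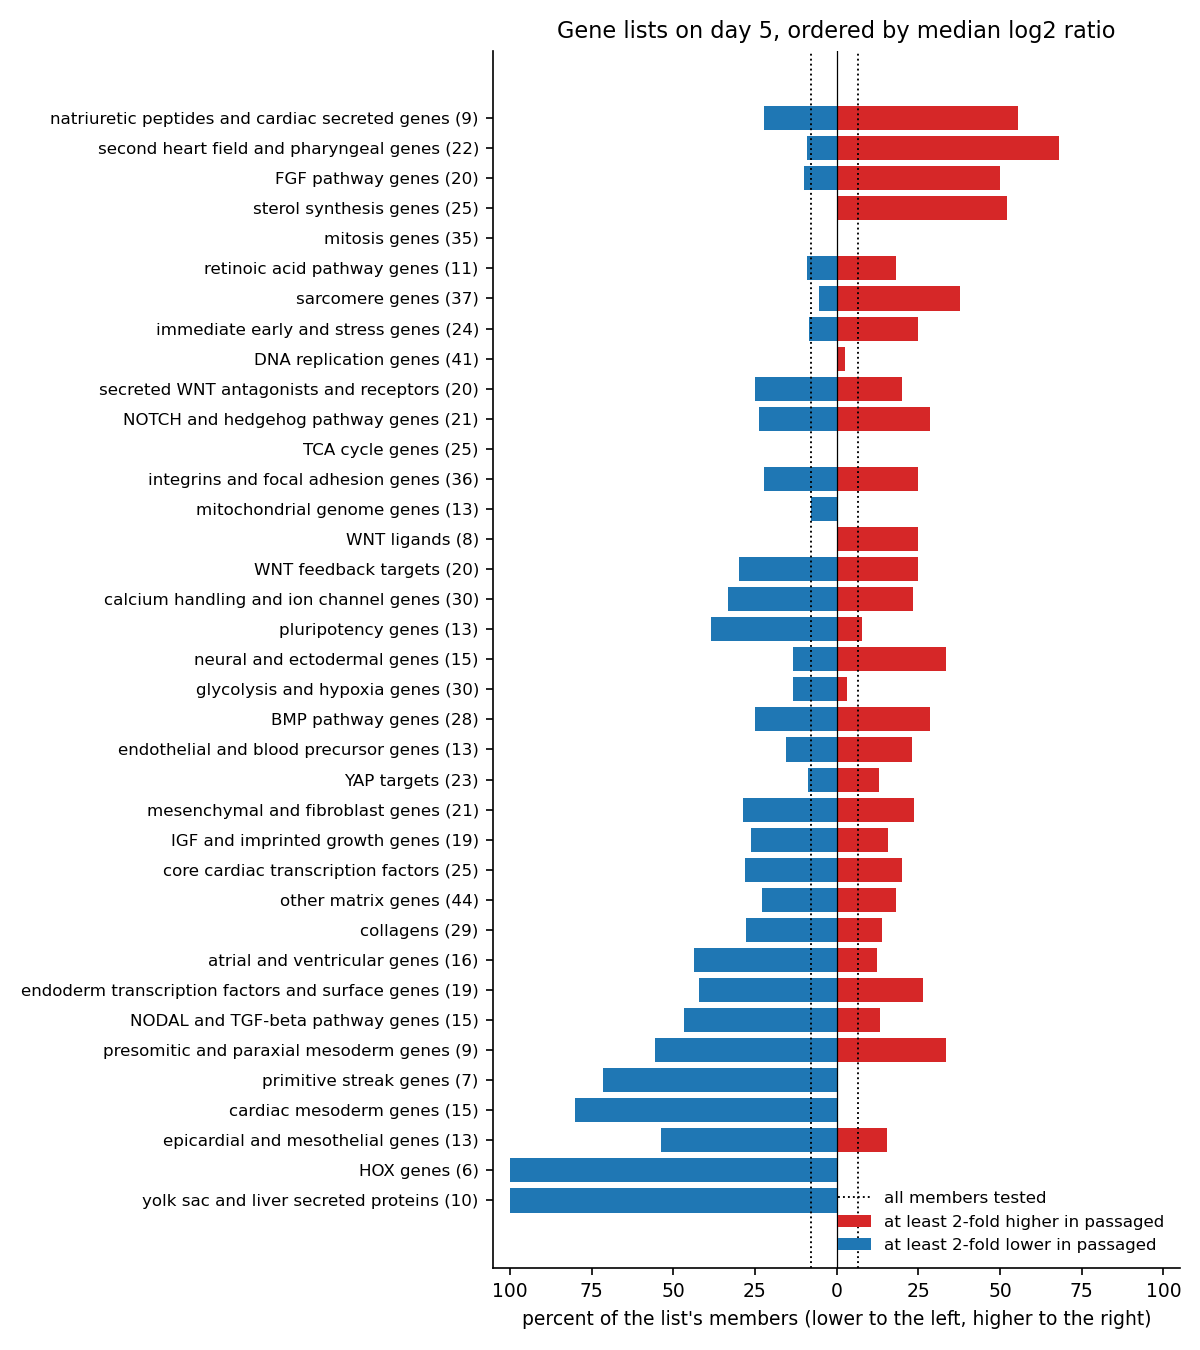
Percent of the measured genes of each of 37 lists (number in brackets) that were at least 2-fold higher in passaged (red, right) or lower (blue, left) on day 5, with dotted lines at the 6.43% and 7.98% of all 15069 genes. Lists are ordered by median log2 ratio, from natriuretic peptides and cardiac secreted genes (2.50) to yolk sac and liver secreted proteins (-2.72).

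HOX genes, which set position along the trunk, were lower in passaged. Of 39 listed, 6 were measured, all in the HOXB cluster, and all 6 were at least 2-fold lower in passaged. HOXB2, HOXB3, HOXB4, HOXB5 and HOXB6, in their order along the cluster, were 2.27-fold, 3.06-fold, 8.60-fold, 10.1-fold and 198-fold lower. HOXB13, at the far end, had 145 and 36 counts. On day 2, HOXB2 to HOXB6 were at 0.04 to 1.71 FPKM. The HOXB3 gene spans HOXB4, HOXB5 and HOXB6, and counts of these overlapping genes are uncertain.

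Of 23 yolk sac and liver proteins listed, 13 were under 30 counts in both libraries and 6 reached 30 counts in NP-IWP2 alone, so that these 6 had to be lower in passaged. The other 4 were APOB, APOC1, APOE and APOM. All 10 measured were at least 2-fold lower, with a median log2 ratio of -2.72 that was -1.44 with no count minimum. APOA2 had 68 and 3 counts, APOB 540 and 76, TTR 96 and 16, and APOE, an apolipoprotein also made outside the liver, was at 563 and 252 FPKM. The endoderm factors HNF4A, SOX17 and FOXA2 had 289, 201 and 310 counts in NP-IWP2 and 0, 3 and 61 in passaged. CDH1, the epithelial cadherin, was 2.65-fold higher (2.47 to 2.85) and SOX9, a factor of many progenitors, 5.58-fold higher (4.55 to 6.92). Thus 5 of the 19 endoderm genes measured were higher and 8 lower. Of the 19, 4 reached 30 counts in NP-IWP2 alone, HNF4A and SOX17 among them, and so had to be lower in passaged.

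Of 13 epicardial and mesothelial genes measured, 7 were at least 2-fold lower in passaged and 2 higher. ALDH1A2, which is also in the retinoic acid list, was the furthest higher, at a log2 ratio of 3.43. WT1 and TBX18, 2 of the 13, reached 30 counts in NP-IWP2 alone and so had to be lower. WT1, which defines the epicardium, had 149 counts in NP-IWP2 and 5 in passaged, and BNC1, of the mesothelium, was at 14.1 and 1.75 FPKM, 8.07-fold lower (6.72 to 9.76). Mesenchymal genes were split, 5 higher and 6 lower of 21. Of the 21, 3 were measured through passaged alone, POSTN and TWIST2 among them, and so had to be higher. PRRX1, a factor of limb and body wall mesenchyme, was at 18.7 and 2.53 FPKM and the filament gene VIM at 938 and 420 FPKM, while TWIST2 had 1 and 48 counts. Of 13 endothelial and blood precursor genes measured, 3 were at least 2-fold higher, 2 lower and 8 within 2-fold, with a median log2 ratio of -0.09. Of the 13, 3 had reached 30 counts in NP-IWP2 alone and 2 in passaged alone, ERG among the latter. The 13 included LMO2, a cofactor of both lineages, 10.4-fold higher (7.32 to 15.3) and ERG at 4 and 47 counts beside the lower KDR.

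SOX2 was the furthest higher gene of both the neural and the pluripotency list. It was at 8.47 FPKM on day 2. On day 5 it stood at 41.6 FPKM in passaged, 0.65 in NP-IWP2 and 0.51 in NP-ctrl. Of 15 neural and ectodermal genes measured, 5 were at least 2-fold higher, 2 lower and 8 within 2-fold, with a median log2 ratio of -0.01, and 4 were measured through passaged alone. SOX3 and TFAP2A, factors of ectoderm, were 5.89-fold and 6.19-fold higher, with 14 and 89 counts and 207 and 1384 counts. OTX2, a factor of forebrain and anterior cells, was lower in passaged, at 14.0 and 4.08 FPKM. PAX6 and SOX1 had 0 counts in NP-IWP2 and 1 count in passaged, too few to compare. The pluripotency genes POU5F1 and L1TD1 were 2.54-fold and 5.05-fold lower in passaged. SOX2 lies inside the noncoding gene SOX2-OT, so reads of the 2 may be confused.

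The extracellular matrix was of a different composition. COL2A1, the collagen of cartilage and notochord that is also expressed in early heart mesenchyme, was at 94.1 FPKM in NP-IWP2 and 749 in passaged, 7.96-fold higher (7.79 to 8.14), and its partner COL11A1 was 6.98-fold higher. FN1, fibronectin, was at 242 and 1027 FPKM, 4.24-fold higher (4.20 to 4.28). The fibrillar collagens COL1A2 and COL3A1 and the microfibrillar COL6A1 and COL6A2 were 5.83-fold, 4.94-fold, 4.54-fold and 4.38-fold lower, and the collagen binding proteoglycans LUM and FMOD 74.8-fold and 14.8-fold lower. In counts, 4 of 29 collagens were higher and 8 lower, and 8 of 44 other matrix genes were higher and 10 lower.

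Among 36 integrin and focal adhesion genes, 9 were at least 2-fold higher in passaged and 8 lower, with a median log2 ratio of 0.21. Of the 36, 3 were measured through passaged alone and 1 through NP-IWP2 alone. VCAM1, an adhesion molecule of cardiac progenitors, was at 0.34 FPKM in NP-IWP2 and 4.10 in passaged, 12.1-fold higher (8.29 to 18.3). ITGA6, a laminin receptor, and ITGAV, a subunit of receptors for fibronectin and vitronectin, were 3.13-fold and 2.53-fold higher. ITGA8 was 5.05-fold lower (4.58 to 5.57), and ITGA11, a collagen receptor, had 138 and 13 counts. ITGA5, the main fibronectin subunit, was at 16.3 and 6.73 FPKM, on the opposite side to FN1.

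Genes of cell division were a little higher in passaged with few past 2-fold. All 35 mitosis genes had a ratio above 1, with a median log2 ratio of 0.57, and none was past 2-fold. TTK, a spindle checkpoint kinase, was 1.99-fold higher (1.76 to 2.24), and CDK1, which drives entry into mitosis, 1.54-fold. Of 41 DNA replication genes, 33 had a ratio above 1, with a median of 0.31, and 1, the clamp loader RFC3, was past 2-fold. On day 2, 34 of the 35 mitosis genes and 32 of the 41 replication genes were above both libraries of day 5 in FPKM, with CCNB1, the partner of CDK1, at 107 FPKM on day 2 and 35.3 and 53.1 on day 5.

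Sterol synthesis genes were higher in passaged together. Of 25, 13 were at least 2-fold higher in passaged, none was lower, 24 had a ratio above 1 and the median log2 ratio was 1.04. HMGCS1, an early enzyme of the pathway, was at 12.1 FPKM in NP-IWP2 and 37.4 in passaged, 3.09-fold higher (2.90 to 3.31). INSIG1, a sterol sensor that is itself induced when sterols are scarce, and SQLE, squalene epoxidase, were 3.07-fold and 2.49-fold higher. On day 2 these 3 genes were at 60.8, 22.7 and 42.6 FPKM, above both libraries of day 5. PMVK, the 1 gene with a ratio under 1, was at 8.11 and 6.80 FPKM.

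Energy metabolism differed little. None of the 25 genes of the TCA cycle was past 2-fold, with a median log2 ratio of 0.23, and 1 of 30 glycolysis and hypoxia genes was at least 2-fold higher and 4 lower. Of 13 genes of the mitochondrial genome, MT-ATP8, which overlaps MT-ATP6, was lower, at 408 and 125 FPKM, and 12 were within 2-fold. Among 24 immediate early and stress genes, 6 were higher, EGR1 the most with 56 and 575 counts, with FOS and MYC 2.94-fold and 3.54-fold higher, and 2 were lower. Of 19 IGF and imprinted growth genes, 3 were higher and 5 lower. The fetal growth factor IGF2 was at 31.4 FPKM in NP-IWP2 and 2.16 in passaged, 14.6-fold lower (12.6 to 16.9), and the noncoding H19 of the same locus was 8.03-fold lower.

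The day 5 differences were set beside the same pair of arms on days 3, 7 and 10, in other libraries. On day 7, 4.42% of 15055 genes were at least 2-fold higher in passaged and 8.74% lower, 13.2% in all. Of the 969 genes higher on day 5, 245 were also higher on day 7, which is 25.3% of the day 5 genes and 36.8% of those of day 7. Of the 1202 lower on day 5, 505 were lower on day 7, 42.0% and 38.4%. On day 10 the shared genes were 143 higher, 14.8% of the day 5 genes and 18.7% of those of day 10, and 475 lower, 39.5% and 21.0%, where 4.96% of all genes were higher, 14.7% lower and 19.7% past 2-fold either way. On day 3 they were 211 higher and 269 lower, 21.8% and 22.4% of the day 5 genes and 21.8% and 20.2% of those of day 3, where 6.42% of all genes were higher and 8.85% lower, 15.3% in all. The passaged library of day 3 had 1.53% of its counts from the mitochondrial genome against 4.66% in its NP-IWP2 partner, and the part of this in the day 3 values was not tested.

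Single genes followed several courses. NKX2-5 was at 1.57 FPKM in NP-IWP2 and 1.31 in passaged on day 3, and at 126 and 252 on day 7, so the 14.1-fold difference of day 5 stood between equal levels and a smaller ratio. MYH6 was at 633 and 778 FPKM on day 7. TBX20 was at 41.6 and 7.70 FPKM on day 5 and at 60.2 and 79.3 on day 7, and MYL7 at 1216 and 1585 FPKM on day 7, the reverse order of day 5 for both. HAND1 was lower in passaged on all 4 days, at 492 and 103 FPKM on day 3 and 323 and 98.4 on day 7. SOX2, at 10.2 and 12.1 FPKM on day 3, was at 0.12 and 16.9 on day 7. FGF10 was at its highest level on day 5 in each arm, and CCN2 and FGF18 were at their highest on day 5 in passaged.

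**Figure D4:**
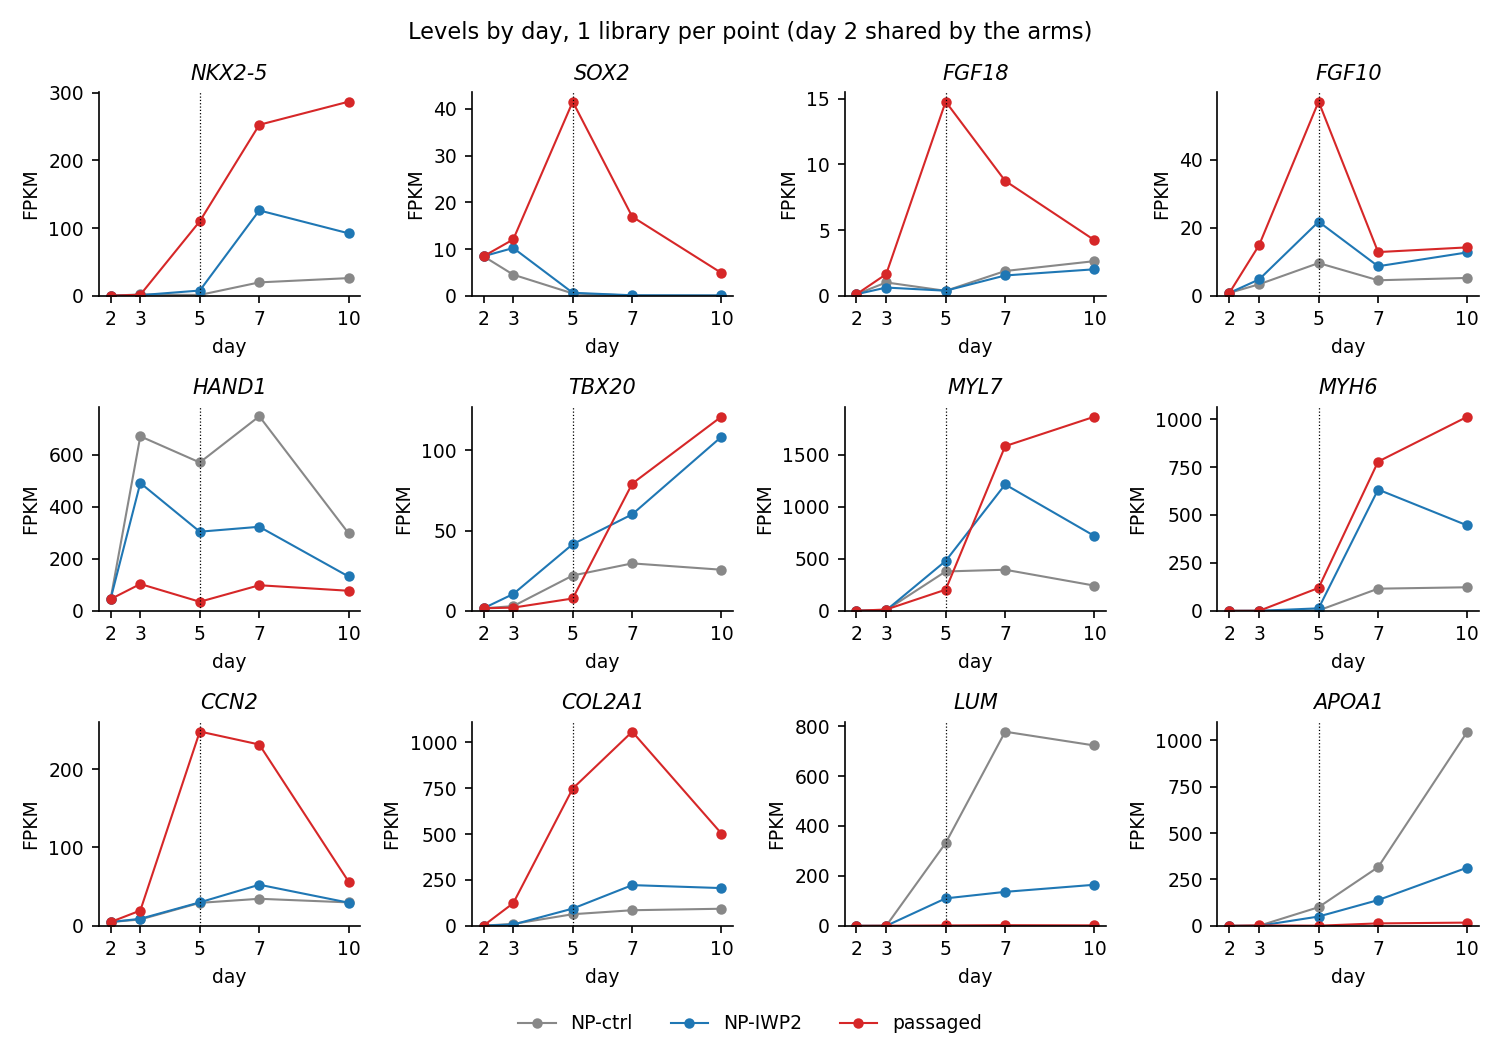
FPKM of 12 genes from day 2, shared by the arms, to day 10 in NP-ctrl (grey), NP-IWP2 (blue) and passaged (red), 1 library per point, with a dotted line at day 5 and a scale for each gene that starts at 0. SOX2, FGF18 and FGF10 peak on day 5 in passaged, TBX20 and MYL7 cross between days 5 and 7, and LUM and APOA1 are at most 17.4 FPKM in passaged.

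By list, the median for second heart field and pharyngeal genes took the values 0.69, 1.41, 0.96 and 0.28 on days 3, 5, 7 and 10 on the log2 scale, over the day 5 genes with over 3 counts on the day in question. Sterol synthesis genes were at 0.84, 1.04, 0.48 and 0.02. FGF pathway genes were at 0.37, 1.08, 0.05 and -0.40, and mitosis genes at -0.18, 0.57, -0.16 and -1.58, so the higher median of both was on day 5. Sarcomere genes were at 0.11, 0.45, 0.71 and 0.93. HOX genes were at 0.41, -2.61, -3.73 and -2.87, and yolk sac and liver proteins at 0.28, -2.72, -3.48 and -4.61.

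**Figure D5:**
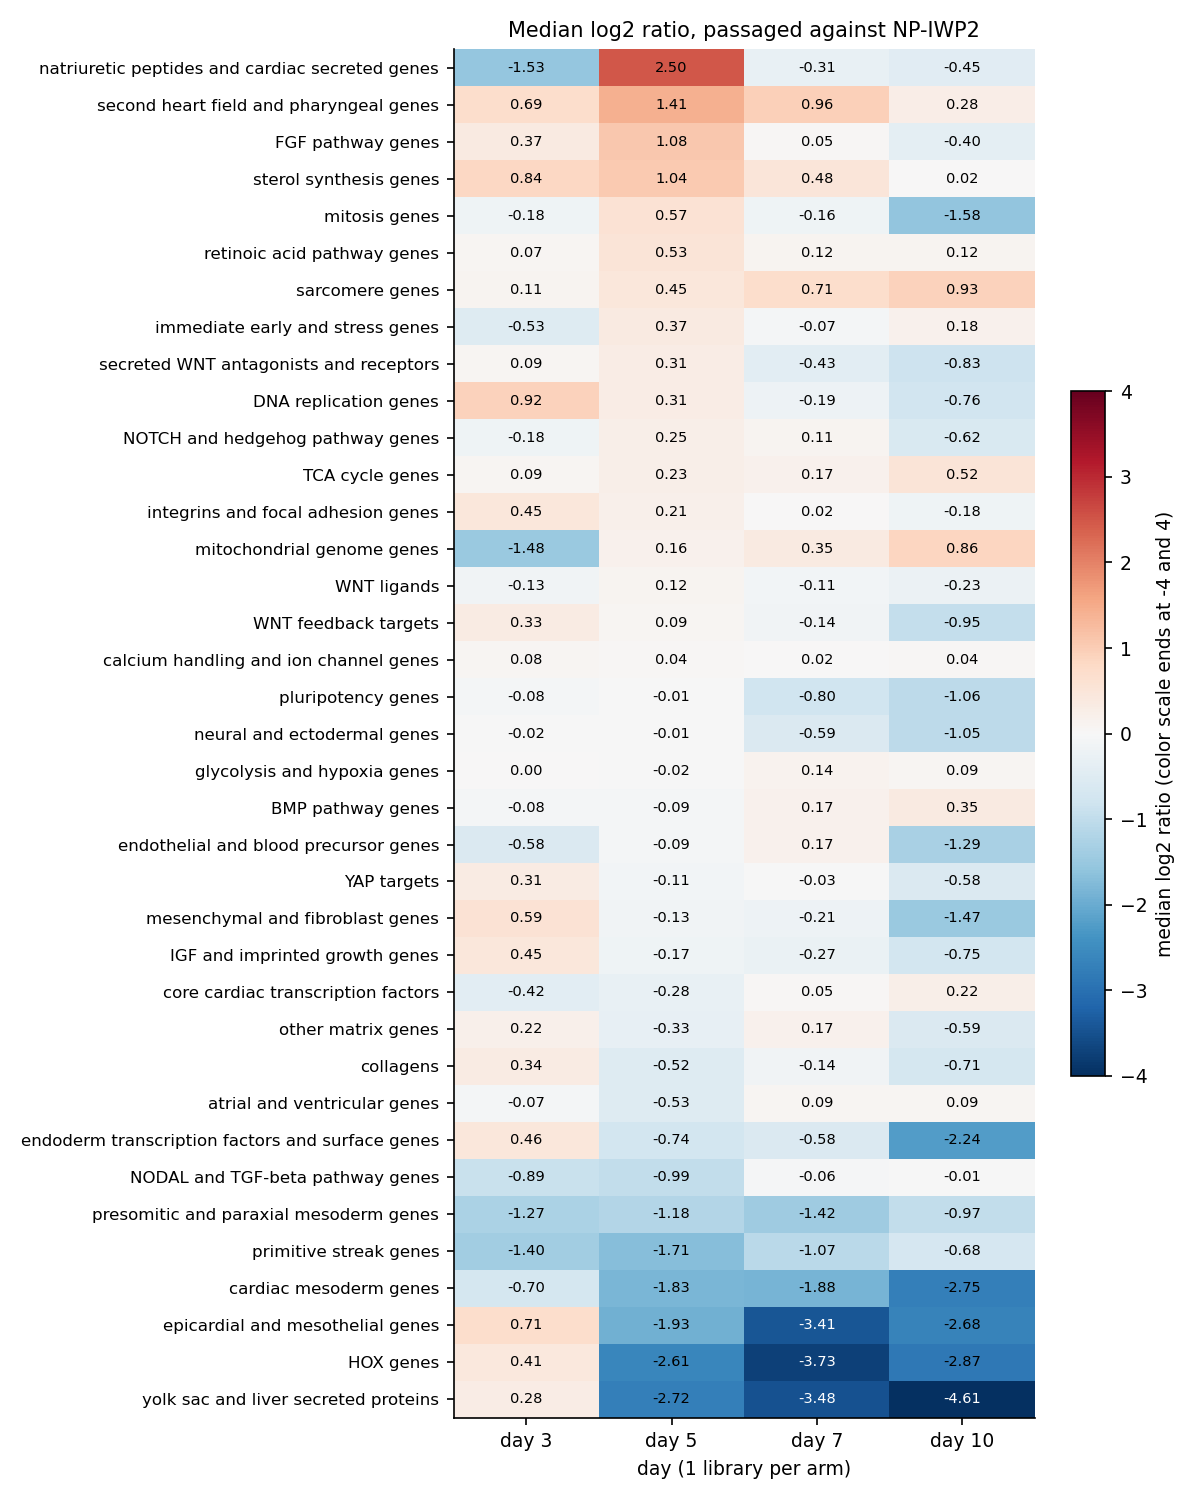
Median log2 ratio of passaged to NP-IWP2 for 37 gene lists (rows) on days 3, 5, 7 and 10 (columns), over the day 5 genes with over 3 counts on that day. Red is higher and blue lower in passaged, and rows are ordered by day 5. FGF pathway (1.08) and mitosis genes (0.57) have their highest median on day 5, while sarcomere genes run from 0.11 on day 3 to 0.93 on day 10.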

How the data were processed

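Bulk RNA from 15 H1 libraries was sequenced by the authors, and the passaged and NP-IWP2 libraries of day 5 were compared. The submitters' processing notes name cutadapt 1.9.1, HISAT2 2.0.1, HTSeq 0.6.1, DESeq2 and the build hg38. The library kit named is for long reads whereas these are short-read tools, and which reads were counted was not resolved, so levels scaled by length carry that doubt. The strand setting is not given in the sources used here. The deposited counts are whole reads per Ensembl gene. The deposited FPKM values scale those counts by exon length and library total, and recomputing them differed by at most 0.005. Gene models matched GENCODE release 44 for 60463 genes, 93.8% with identical coordinates. The file gave no symbol for 909 of the compared genes, which were named from a table of identifiers.

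Genes with at least 30 counts in either library were kept. The ratio of counts per library total was computed with Python 3.11.15, numpy 2.4.6, pandas 2.3.3 and scipy 1.17.1 and carries a Clopper-Pearson 95% interval. Counts under 3 were raised to 3 in log2 ratios. The study used DESeq2, but with 1 library per arm no spread can be estimated, so no such test was run. Lists were summarised by counts past 2-fold and medians. The scripts were tested on simulated data. Alternatives were other scalings (TMM, median of ratios, TPM, totals without mitochondrial genes), other count minimums, a 4-fold ratio, and differences in log2(FPKM + 1) or log2(FPKM + 0.1). All per-sample columns were matched to labels. Promoters came from RefSeq on GRCh38.p14.

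The compared genes, the 37 gene lists and the rules were chosen with earlier results of these data known. Named genes were the 12 protein-coding genes furthest in each direction among those with at least 300 counts, up to 4 genes per list and direction furthest past 2-fold, and a fixed set of 20 (NKX2-5, TBX5, ISL1, HAND1, HAND2, GATA4, GATA6, MEF2C, TBX20, MESP1, PDGFRA, TNNT2, MYL7, MYH6, MYH7, SOX2, HOXB6, COL2A1, NPPA, NPPB). Cell type markers were a further fixed set. Chosen after their values were seen were ACTC1, APOC1, APOE, APOM, ATP2A2, AXIN2, BMP2, BMP4, BMP7, CCNB1, CDK1, DUSP6, ETV4, EYA1, EYA2, FGF10, FGF8, FN1, FOS, FOXC1, GATA5, HOXB1, HOXB2, HOXB3, IL17RD, ITGA5, ITGAV, MT-ATP6, MYL2, MYL3, MYOCD, NKX2-6, PMVK, RYR2, SPRY2, SPRY4, SQLE, SRF, TBX1, TNNC1, TPM1, TTK and VIM.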

Additional observations from a re-analysis of the deposited data

Results flagged for a closer look

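Some genes that were at least 2-fold apart on day 5 were at least 2-fold apart in the opposite direction on another day. With 1 library per arm and day, the difference between days was not tested. Of the genes higher in passaged on day 5, 59, 63 and 163 were lower on days 3, 7 and 10, which is 6.09%, 6.50% and 16.8% of them, where 8.85%, 8.74% and 14.7% of all genes compared on those days were lower. Of those lower on day 5, 87, 24 and 61 were higher on days 3, 7 and 10, which is 7.24%, 2.00% and 5.08%, where 6.42%, 4.42% and 4.96% of all genes were higher. Apart from the 2.00% on day 7, these shares lay within 1.5 times those of all genes, and nothing is read from them.

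Among the genes furthest apart on day 5, 4 were of this kind. PRDM1, a repressor of pharyngeal progenitors, was 17.8-fold higher in passaged on day 5 and had a log2 ratio of -2.46 on day 10, at 0.59 FPKM in NP-IWP2 and 0.11 in passaged. NRG1 was 16.4-fold higher on day 5 and had a log2 ratio of -2.41 on day 3, at 0.87 and 0.16 FPKM. APOA1 was 76.5-fold lower on day 5 and had a log2 ratio of 3.48 on day 3, when it was low in both, at 0.20 and 2.27 FPKM. PGA5 was 28.8-fold lower on day 5 and had a log2 ratio of 2.47 on day 10, at 0.80 and 4.40 FPKM.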

How the results depend on the processing

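No paired analysis was possible because each arm had 1 library on day 5, and for the same reason no replicate was left out. Under TMM, median-of-ratios, TPM and nonmitochondrial totals, each of the 195 named genes stayed within its counting interval, all genes' median stayed within 0.03 of 0, and higher genes made up 43.1% to 45.2% of those past 2-fold against 44.6% as reported. Under log2(FPKM + 1), which shrinks low genes, that share was 39.5%, and 137 of the 195 named genes moved out of their counting interval. Under log2(FPKM + 0.1), 15 of them did. No result past 2-fold changed sign under any alternative run.

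Counts depended on the threshold. The 969 higher and 1202 lower genes were 366 and 560 under log2(FPKM + 1), 2306 and 2582 with no count minimum, 539 and 698 with at least 100 counts, 297 and 391 at a ratio of at least 4, and 516 and 668 with the interval wholly past 2-fold. Under log2(FPKM + 1), an alternative chosen after seeing the data for the shared genes, those shared with day 3 were 69 higher and 94 lower, with day 7 96 and 248, and with day 10 65 and 205.

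List medians past their counting intervals were these. Under log2(FPKM + 1), second heart field genes were at 1.23, primitive streak genes at -0.85, presomitic genes at -0.67, cardiac secreted genes at 1.26, FGF genes at 0.74, HOX genes at -2.09, endoderm genes at -0.37, yolk sac and liver proteins at -1.28 and epicardial genes at -0.87. With no count minimum, second heart field genes were at 1.29, presomitic genes at -0.47, WNT antagonists and receptors at 0.44, FGF genes at 0.91, HOX genes at -2.11, yolk sac and liver proteins at -1.44 and epicardial genes at -0.95. With at least 100 counts, second heart field genes were at 1.29, WNT targets at -0.34, BMP genes at -0.25, FGF genes at 0.91, endoderm genes at -0.38 and mesenchymal genes at -0.26. The WNT target median thus had the other sign, and no direction is read from it. Mitochondrial genome genes were at 0.14 under TMM and 0.13 under the median of ratios.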

Other observations

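Beyond the lists, the abundant genes that were at least 2-fold lower in passaged included S100A10, a partner of annexin at the cell membrane, at 426 FPKM in NP-IWP2 and 43.6 in passaged, a log2 ratio of -3.29. TMEM88, a membrane protein that restrains WNT signalling and is needed for heart cells to form, was at 761 and 218 FPKM, a log2 ratio of -1.80. PODXL, a sialomucin of epithelia and pluripotent cells, was at 170.2 and 65.1 FPKM. GPC3, a heparan sulphate proteoglycan of the cell surface, was on the other side, at 20.2 and 175.5 FPKM. The splicing factor gene SRSF2 was at 77.5 and 156 FPKM. These genes were chosen after their values were seen.

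Of 1329 long noncoding RNAs, 162 were at least 2-fold higher and 180 lower in passaged, and of 13046 protein-coding genes 753 and 936. Over all genes compared, 6.43% were higher and 7.98% lower. The share past 2-fold either way was 37.2% among genes with a mean of under 1 FPKM. Levels of these classes were not compared, so no difference between the classes is read from the counts. Among long noncoding RNAs with at least 300 counts, LINC01695 had 1029 counts in NP-IWP2 and 6 in passaged, a log2 ratio of -7.53. LINC00261, a neighbour of FOXA2, had 488 and 88 counts. MIR17HG, the host of the miR-17-92 cluster of growth-promoting miRNAs, had 104 and 554 counts, a log2 ratio of 2.30. In all, 12 genes were at 0 counts in passaged and 9 at 0 counts in NP-IWP2, among them DHRS9 with 76 counts and the hormone subunit CGA with 74 counts in the other library.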
